A study of Mus musculus with 6 samples.

Results

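Autophagy is the route by which a cell wraps part of its cytoplasm in a double membrane, the autophagosome, and delivers it to the lysosome for breakdown. A kinase complex built on ULK1 or ULK2 starts the process, a lipid kinase complex that holds Beclin 1 marks the site, and a conjugation system joins ATG8 proteins to the growing membrane, where cargo receptors bind them. mTORC1, the nutrient-sensing kinase complex whose scaffold is Raptor, is known to phosphorylate ULK1 and ATG13 and so to hold autophagy back, and it also keeps TFEB, a transcription factor of lysosomal and autophagy genes, out of the nucleus.

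The genes described here are 10 core autophagy genes, chosen by name: *Ulk1*, *Ulk2*, *Atg13*, *Rb1cc1*, *Becn1*, *Atg5*, *Atg7*, *Map1lc3b*, *Gabarapl1* and *Sqstm1*. All 10 are among the 23420 genes listed in the deposited table, and all 10 were among the 17168 genes tested. The comparison asks whether their RNA differed between control lungs and lungs in which the Raptor gene, *Rptor*, was targeted in the epithelium. Protein amounts, phosphorylation and autophagic flux were not measured in these libraries.

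RNA was sequenced from whole mouse lungs collected at E11.5dpc (embryonic day, *days post coitus*), when the lung is a small branching epithelium inside mesenchyme. There were 3 control libraries, labelled Raptorf/+; ShhCre/+, and 3 mutant libraries, labelled Raptorf/f; ShhCre/+. Each library was made from a pool of 3 or 4 lungs of 1 genotype, so p-values measure the spread between such pools. Both groups carried 1 copy of *Shh*-driven Cre, an enzyme that cuts out the floxed *Rptor* segment in the epithelium, so control embryos also had 1 floxed allele and lacked 1 functional copy of *Shh*. Cells outside the epithelium keep *Rptor* in both groups and contribute to every value. In bulk RNA of this kind, fewer cells of a type and less RNA per cell cannot be told apart.

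Values are normalized counts, that is, reads scaled by 1 factor for each library. The libraries held 20197642 to 21276090 reads assigned to genes. Control pool 3 stood farthest from its group, with a median deviation from the group mean of 0.0702 on the log2 scale over 11458 genes, against 0.0315 to 0.0581 in the other libraries, so results are also given without it. *Rptor* itself (GRCm38, chr11:119602905-119899576) had normalized counts of 2126, 2193 and 2279 in the control pools and 2023, 2137 and 2148 in the mutant pools. These groups overlapped (limma log2 fold change -0.06, adjusted p = 0.584). The paper reports less Raptor protein in purified epithelium of mutant lungs, at a later stage than these libraries. The 8 epithelial marker genes were all detected. Their summed normalized count was 11528 to 13946 in control pools and 8849 to 9639 in mutant pools. The fall was uneven, with log2 fold changes from -0.97 for *Cdh1* to -0.03 for *Shh*.

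The RNA of the core autophagy genes differed little between the groups. *Gabarapl1*, which encodes an ATG8 protein, was the exception in size, at 1.23 times the control level with no overlap between the groups, and its adjusted p of 0.083 (limma, Benjamini-Hochberg adjustment) missed the threshold of 0.05. The other 9 genes had log2 fold changes between -0.06 and 0.11. Their 95% intervals ran from -0.18 to 0.23, which corresponds to between 0.886 and 1.17 times the control level. These bounds hold for RNA of the whole lung, and the change within the epithelium alone was not measured. The median log2 fold change was 0.02 for the 10 genes and -0.002 for all tested genes.

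By the limma comparison of log2(normalized count + 1), 0 of the 10 genes passed the adjusted threshold, where 0.501% of all tested genes did. At an unadjusted p under 0.05 there was 1 of 10, *Gabarapl1*, against 13.6% of all tested genes. The groups did not overlap for 1 of 10, against 20.2% of all tested genes in either direction. Mean values were higher in the mutant pools for 5 genes and lower for the other 5. Counted in either direction, these shares are at or below those of all tested genes. *Gabarapl1* was higher in the mutant pools. Of all tested genes, 6.67% had an unadjusted p under 0.05 in that direction. A separation of the groups in that direction was seen in 9.77%.

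**Figure D1:**
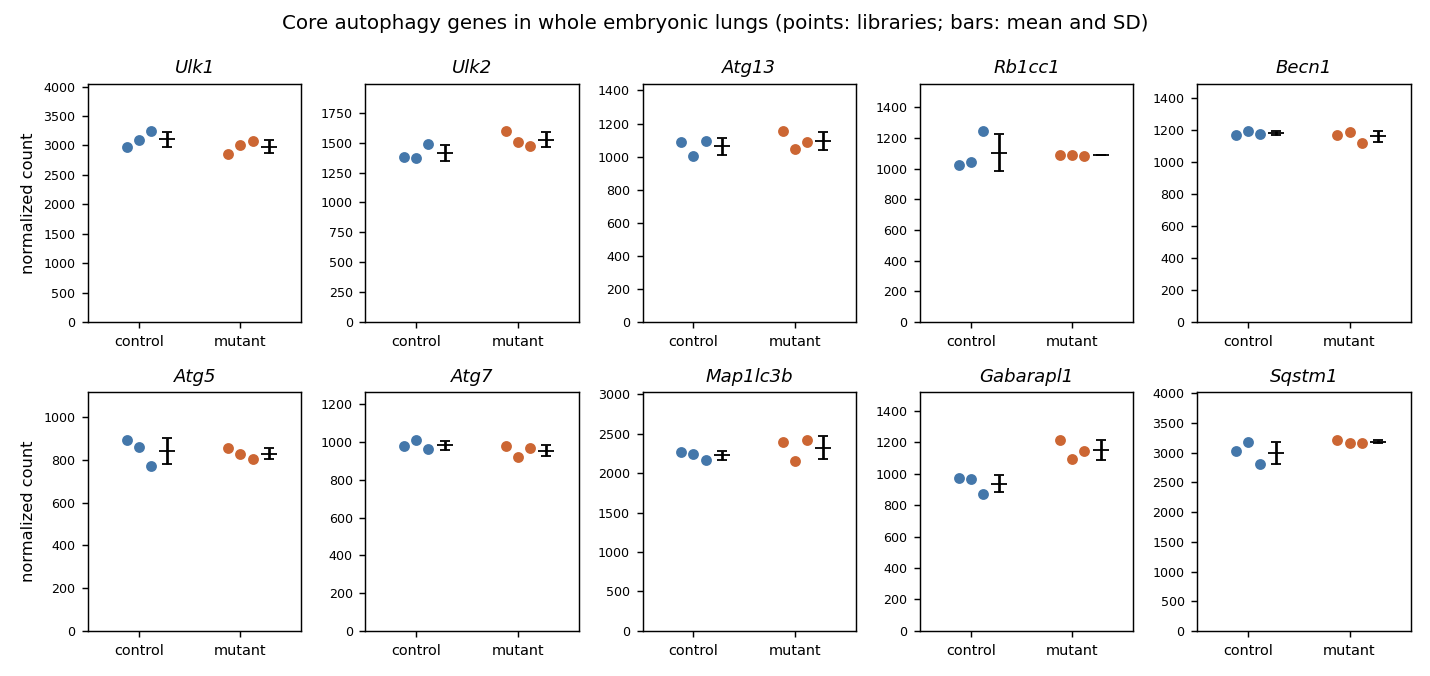
Normalized counts of the 10 core autophagy genes in each of the 3 control (blue) and 3 mutant (orange) libraries, each gene on its own axis from 0, with points for libraries and bars for the mean and SD. The control and mutant points overlap for 9 genes, whereas for *Gabarapl1* the mutant libraries (1092 to 1215) all lie above the control libraries (874 to 973).

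The ULK kinase complex receives the signal from mTORC1. *Ulk1* (GRCm38, chr5:110784488-110810097, minus strand) encodes its main kinase and had normalized counts of 2981, 3094 and 3239 in the control pools and 2852, 3012 and 3072 in the mutant pools. The mutant mean was slightly lower and the groups overlapped (3105 ± 129 against 2979 ± 114, SD, n = 3 each). Its log2 fold change was -0.06 (95% interval -0.16 to 0.05, limma adjusted p = 0.628).

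*Ulk2* (chr11:61775649-61855073, minus strand) encodes the related kinase that can stand in for ULK1. Its normalized counts were 1378, 1371 and 1489 in the control pools and 1594, 1506 and 1472 in the mutant pools. All the mutant pools lay above control pools 1 and 2, and mutant pool 3 fell just below control pool 3. Its log2 fold change was 0.11 (interval -0.01 to 0.23, limma adjusted p = 0.401), the largest after that of *Gabarapl1* among the 10. With edgeR on 5 libraries, without control pool 3, it was 0.15 with an adjusted p of 0.139.

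The balance of the 2 kinases was compared as the log2 ratio of *Ulk1* to *Ulk2* within a library, which does not depend on the size factor. It was 1.11, 1.17 and 1.12 in the control pools and 0.84 to 1.06 in the mutant pools. Every mutant pool thus lay below every control pool, with a difference of -0.17 (two-sided exact permutation p = 0.1, adjusted p = 0.15 over the 3 ratios examined). A p of 0.1 is the smallest that 3 libraries against 3 can give. Leaving out 1 library at a time gave differences of -0.22 to -0.11.

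The other subunits were close to equal in the 2 groups. *Atg13* (chr2:91674618-91710576, minus strand), the adaptor that mTORC1 phosphorylates along with ULK1, was at 1062 ± 52.2 normalized counts in control and 1096 ± 53.6 in mutant pools (SD, n = 3 each). *Rb1cc1* (chr1:6206197-6276648, plus strand) encodes FIP200, the scaffold of the complex. It was at 1025, 1045 and 1244 in the control pools and at 1092, 1091 and 1086 in the mutant pools, so the high control pool 3 set the control mean of 1105 ± 121. The log2 fold change of *Rb1cc1* was -0.01 with all libraries and 0.07 without control pool 3. *Atg101*, the partner of ATG13 and not among the 10 genes, was at 473 ± 17.4 and 473 ± 12.5.

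*Becn1* (chr11:101285952-101302286, minus strand) encodes Beclin 1, which holds together the class III PI3-kinase complex that makes the phospholipid of the nascent membrane. Its normalized counts were 1169, 1192 and 1178 in control and 1168, 1190 and 1122 in mutant pools, so the groups overlapped, with mutant pools 1 and 3 just below every control pool and mutant pool 2 among them. This gave a log2 fold change of -0.02 (interval -0.13 to 0.08). Of the other genes of this complex, *Pik3c3*, the lipid kinase itself, was at 784 ± 33.6 and 806 ± 41.8, and *Atg14*, which directs the complex to autophagy, was at 489 ± 22.2 and 505 ± 19.8. *Pik3r4*, the regulatory subunit VPS15, was lower in every mutant pool, at 1199 ± 31.3 in control and 1095 ± 54.1 in mutant pools. Its log2 fold change of -0.13 (interval -0.25 to -0.01) had an unadjusted p of 0.0349 and a limma adjusted p of 0.322.

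The conjugation system works like that of ubiquitin, with ATG7 as the activating enzyme for both ATG12 and the ATG8 proteins and ATG5 as the acceptor of ATG12. *Atg5* (chr10:44268358-44364291, plus strand) had normalized counts of 892, 861 and 772 in control and 855, 828 and 803 in mutant pools. *Atg7* (chr6:114643097-114860614, plus strand) had 978, 1010 and 963 in control and 978, 919 and 966 in mutant pools. For both genes the groups overlapped, with log2 fold changes of -0.02 (interval -0.17 to 0.13) for *Atg5* and -0.04 (interval -0.16 to 0.07) for *Atg7*. The sign for *Atg5* turned when control pool 1 was left out (0.02).

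Of the other conjugation genes, *Atg12* was at 1168 ± 39.8 and 1133 ± 11.6, and *Atg3*, the E2-like enzyme for ATG8 proteins, was at 476 ± 14.7 and 487 ± 27.8. *Atg16l1*, which brings the ATG12-ATG5 conjugate to the membrane, had 715, 699 and 710 in control and 662, 644 and 629 in mutant pools. The groups did not overlap, and the log2 fold change was -0.13 (interval -0.26 to -0.01, unadjusted p = 0.0359, limma adjusted p = 0.326). The protease gene *Atg4a* was barely detected, with 0 to 9 reads per library, and its log2 fold change of 1.47 had an interval of -0.12 to 3.05.

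Since mTORC1 restrains TFEB, the promoters of the 10 genes were searched on both strands for the E-box core CACGTG and the longer GTCACGTG of TFEB target genes, which contains it. RefSeq promoters of GRCm38.p6, 250 bases before a gene's start to 50 after it, were at hand for 8 of the 10 genes, not for *Rb1cc1* and *Becn1*. CACGTG was found in 2 of the 8, *Atg5* and *Atg7*, and in 7.15% of all 32851 promoters, and GTCACGTG in 1 of the 8, *Atg7*, and in 2.25% of all promoters. The stretches around these matches are shown because these genes have no other match, with the motif in capitals, 5′ to 3′ on the plus strand. The *Atg5* stretch is chr10:44268298-44268338, with the motif beginning 14 bases before the start, and the *Atg7* stretch is chr6:114670937-114670996, with CACGTG beginning 132 bases before a RefSeq start that lies 28 kb inside the GENCODE gene.
Atg5: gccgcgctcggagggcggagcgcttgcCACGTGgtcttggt
Atg7: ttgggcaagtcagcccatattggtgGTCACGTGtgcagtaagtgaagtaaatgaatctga
A match describes letters and shows no binding. Neither *Atg5* nor *Atg7* passed the test. GTAAACA, a core bound by FOXO factors, and TGATGCAAT, bound by ATF4, were in 0 of the 8 windows and in 3.65% and 0.192% of all promoters.

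ATG8 proteins are the ubiquitin-like proteins that are coupled to lipid in the autophagosome membrane, in an LC3 and a GABARAP branch. *Map1lc3b* (chr8:121590361-121598760, plus strand), the gene of the LC3 protein most used as an autophagosome marker, had normalized counts of 2267, 2247 and 2162 in control and 2393, 2158 and 2418 in mutant pools. Mutant pool 2 lay below every control pool and the remaining mutant pools above them. The log2 fold change was 0.06 (interval -0.06 to 0.18, limma adjusted p = 0.664).

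*Gabarapl1* (chr6:129533160-129542346, plus strand) had normalized counts of 973, 966 and 874 in the control pools and 1215, 1092 and 1145 in the mutant pools. The groups were fully apart, with the lowest mutant pool above the highest control pool, at 1151 ± 61.5 against 938 ± 55.5 (SD, n = 3 each). The log2 fold change was 0.30, with a 95% interval of 0.16 to 0.44, or 1.11 to 1.35 times the control level. The unadjusted p of 0.000793 stood at rank 164 of the 17168 tested genes, and the limma adjusted p was 0.083. The 68 bases upstream of its first exon, chr6:129533092-129533159 on the plus strand (RefSeq, GRCm38.p6), are shown as part of the promoter of the gene with the largest difference. They have a G and C share of 61.8% and hold no exact match to the motifs above. Near matches were not searched for.
Gabarapl1: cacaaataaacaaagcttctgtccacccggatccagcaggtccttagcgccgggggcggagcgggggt
The same bases lie in an exon of *1700101I11Rik*, a transcript of the opposite strand whose exons overlap those of *Gabarapl1*. Whether reads were counted by strand was not given in the sources used here. *1700101I11Rik* had at most 2.94 normalized counts in any library.

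The call for *Gabarapl1* depended on the libraries and the test. Its log2 fold change was between 0.25 and 0.33 in all 18 fits, as the plot of its value under each fit shows. Without control pool 3, the lowest of the 6 libraries for this gene, limma gave 0.25 with an adjusted p of 0.0367, and 1 of the 10 genes was called where 2.70% of all tested genes were. The edgeR test on the whole reads of 5 libraries, again without control pool 3, called *Gabarapl1* (adjusted p = 0.0431) and no other of the 10, against 3.68% of all genes it tested. DESeq2 on the same 5 libraries gave an adjusted p of 0.0585 and 0 of 10, against 2.20% of all genes.

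With the whole reads of all 6 libraries, DESeq2 called 1 of the 10, *Gabarapl1* (adjusted p = 0.0214), against 1.46% of all genes. On the same reads, edgeR called 0 of 10 against 0.539% (adjusted p = 0.0783 for *Gabarapl1*). Leaving out any other single library gave limma adjusted p-values from 0.0652 to 0.354. The gene thus passed the threshold in 3 of the 18 fits, and the groups did not overlap in the deposited values.

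**Figure D2:**
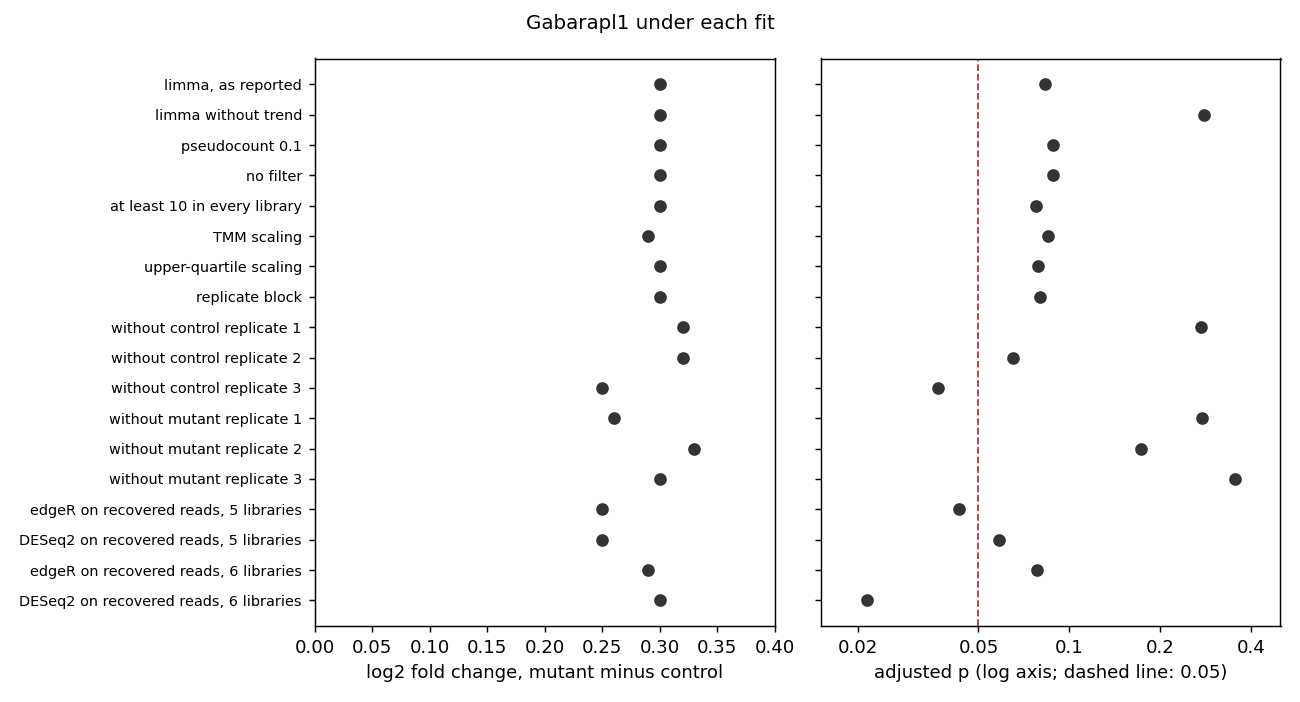
Log2 fold change of *Gabarapl1* (left, mutant minus control) and its adjusted p (right, log axis, dashed line at 0.05) under each of 18 fits, 1 point a fit. The fold change stays between 0.25 and 0.33, and the adjusted p lies under 0.05 in the fit without control pool 3, in edgeR on 5 libraries and in DESeq2 on 6 libraries.

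Some markers of other cell types differed between the groups in the same libraries. The mesenchymal markers summed to 56883 to 61399 normalized counts in control and 71485 to 78023 in mutant pools. Of these, 6 of 6 were higher in the mean and 3 of 6, *Col1a1*, *Col1a2* and *Fgf10*, passed the limma adjusted threshold. Most of the sum came from *Col1a1* (means 19800 in control and 27828 in mutant pools) and *Col1a2* (24270 and 30639). *Foxf1*, *Pdgfra* and *Tbx4* overlapped between the groups, with log2 fold changes of 0.03, 0.09 and 0.11. The epithelial markers had log2 fold changes from -0.97 to -0.03. Of them, 8 of 8 were lower in the mean and 4 of 8, *Cdh1*, *Krt8*, *Krt18* and *Cldn6*, passed the limma adjusted threshold. *Epcam*, *Nkx2-1* and *Shh* overlapped between the groups, with log2 fold changes of -0.27, -0.25 and -0.03. Smooth muscle markers summed to 6062 to 7640 and 8096 to 9036, with 0 of 4 past that threshold. Endothelial markers summed to 10130 to 11530 and 11560 to 12117, with 0 of 5 past it. Every mutant pool was higher for 2 of the 4 and 3 of the 5. *Tagln*, *Actg2*, *Pecam1* and *Kdr* overlapped between the groups, with log2 fold changes of -0.08, 0.48, 0.07 and -0.01. None of the markers in these lists was at 0 in all libraries. Cell makeup and genotype cannot be told apart here, and the part of the markers in the *Gabarapl1* difference was not tested.

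Within the ATG8 family, 3 of the 5 genes had an unadjusted p under 0.05 with limma, all higher in the mutant pools, and 0 of 5 passed the adjusted threshold. Of all tested genes, 13.6% reached that unadjusted p in either direction and 6.67% did so with a higher value in the mutant pools. The 3 of 5 is a description that depends on the test, and the family was not tested as a group. Of the autophagy genes outside the 10, only 1 reached that p with DESeq2, on 5 or on 6 libraries. *Gabarap* and *Map1lc3a* thus did not both reach it there. *Gabarap*, the most abundant of them, had normalized counts of 4801, 4552 and 4501 in control and 4886, 5009 and 5157 in mutant pools. *Map1lc3a* had 962, 893 and 880 in control and 1036, 1026 and 980 in mutant pools. For both genes every mutant pool lay above every control pool, by less than for *Gabarapl1*. Such a separation, with the mutant pools higher, was seen in 9.77% of all tested genes. The log2 fold change was 0.12 for *Gabarap* (interval 0.03 to 0.21, limma unadjusted p = 0.0161, adjusted p = 0.237) and 0.15 for *Map1lc3a* (interval 0.03 to 0.28, unadjusted p = 0.0201, adjusted p = 0.255). *Gabarapl2* was not higher, at 632 ± 12.2 in control and 614 ± 49.0 in mutant pools.

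**Figure D3:**
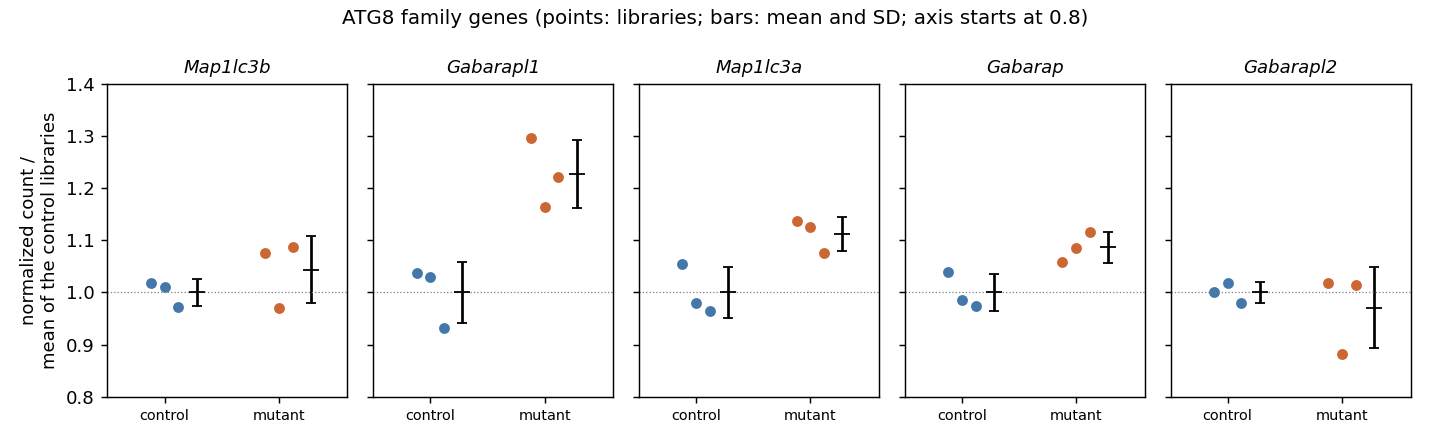
Normalized counts of the 5 ATG8 family genes in each library, divided by the mean of the control libraries of that gene (axis from 0.8), with points for libraries and bars for the mean and SD. The mutant points (orange) lie above all control points (blue) for *Gabarapl1*, *Map1lc3a* and *Gabarap* and overlap them for *Map1lc3b* and *Gabarapl2*.

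The log2 ratio of *Map1lc3b* to *Gabarapl1* within a library was 1.22, 1.22 and 1.31 in the control pools and 0.98, 0.98 and 1.08 in the mutant pools. The groups did not overlap, with a difference of -0.24, lower in the mutant pools (two-sided exact permutation p = 0.1, adjusted p = 0.15). Without any 1 library the difference was -0.27 to -0.21. Per kilobase of transcript, *Gabarapl1* made up 8.59, 8.88 and 8.24% of the summed ATG8 family level in control and 10.2, 9.36 and 9.44% in mutant pools. *Gabarap* made up the largest share in both groups, 56.9% ± 0.427 in control and 56.8% ± 1.34 in mutant pools (SD, n = 3 each). The share of *Gabarapl1* was higher in every mutant pool, and that of *Gabarapl2* lower, at 6.27% ± 0.191 and 5.59% ± 0.362. As shares of 1 sum, these values are not independent of each other, and no test was run on them. They also depend on the length used for each gene. *Map1lc3b* had 879 normalized counts per kb in control pools by transcript length and 296 by the union of all exons.

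*Sqstm1* (chr11:50199366-50210827, minus strand) encodes p62, the cargo receptor that binds ubiquitin on one side and ATG8 proteins on the other and is itself broken down by autophagy. Its normalized counts were 3024, 3178 and 2808 in the control pools and 3214, 3173 and 3166 in the mutant pools. The mutant pools were close together, and control pool 2 lay among them. In limma the log2 fold change was 0.09 (interval -0.02 to 0.20, adjusted p = 0.475). The log2 ratio of *Sqstm1* to *Map1lc3b* was 0.43 ± 0.06 in control and 0.46 ± 0.09 in mutant pools, a difference of 0.03 (two-sided exact permutation p = 0.6). *Nbr1*, a related cargo receptor, was at 2787 ± 137 and 2763 ± 16.5.

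The 10 genes differed far more from each other than between the groups. Between genes, levels are compared per length. Per kilobase of the main transcript in GENCODE M21, *Sqstm1* had the highest level, at 1474 ± 91.2 normalized counts per kb in control and 1563 ± 12.8 in mutant pools. *Map1lc3b* came next at 879 ± 22 and 917 ± 56.6. *Ulk1* (596 ± 24.8 and 571 ± 21.9) and *Gabarapl1* (515 ± 30.5 and 632 ± 33.8) overlapped over the 6 libraries, and their order of means was opposite in the 2 groups. *Atg5* (358 ± 26.4 in control pools) and *Atg13* (299 ± 14.7) followed. *Becn1*, *Atg7* and *Ulk2*, at 266 ± 7.99, 254 ± 8.31 and 265 ± 10.9 in mutant pools, overlapped each with the next over the 6 libraries. *Rb1cc1* was lowest, at 145 ± 15.9 and 143 ± 0.474. With the union of all exons as the length, *Sqstm1* and *Rb1cc1* kept their places, while *Map1lc3b* moved from rank 2 to 5 and *Gabarapl1* from rank 4 to 2.

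The 47 other autophagy genes examined were all listed and tested, 3 of them under older symbols. With limma, 0 of 47 passed the adjusted threshold, and edgeR and DESeq2 also called 0 with 5 and with 6 libraries. An unadjusted p under 0.05 was reached by 4 of 47 with limma, *Gabarap* and *Map1lc3a* higher and *Pik3r4* and *Atg16l1* lower, by 5 and 4 with edgeR on 5 and 6 libraries and by 1 with DESeq2 on either. Over all genes tested, these shares were 13.6% with limma, 18.7 and 14.9% with edgeR and 8.87 and 8.21% with DESeq2, so each count of the 47 lay below the share of all genes. The groups did not overlap for 10 of the 47, 6 higher and 4 lower in mutant pools, a share near the 20.2% of all tested genes. The next lowest p was that of *Atg2a*, a lipid transfer protein gene, with 1161, 1114 and 1186 in control and 1202, 1304 and 1236 in mutant pools (log2 fold change 0.11, limma adjusted p = 0.386).

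The groups of the pathway had medians close to 0 outside the ATG8 family. Core and other genes together, the median log2 fold change was -0.00 for the 5 genes of the ULK complex, 0.04 for the 8 of the PI3-kinase complex and 0.05 for the 10 of ATG9 vesicles and lipid transfer. It was -0.04 for the 11 conjugation genes, 0.02 for the 12 cargo receptors and 0.03 for the 6 genes of fusion with the lysosome. The 5 ATG8 genes had a median of 0.12. Each list held 0 genes past the adjusted threshold, and no comparison between the lists was tested.

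**Figure D4:**
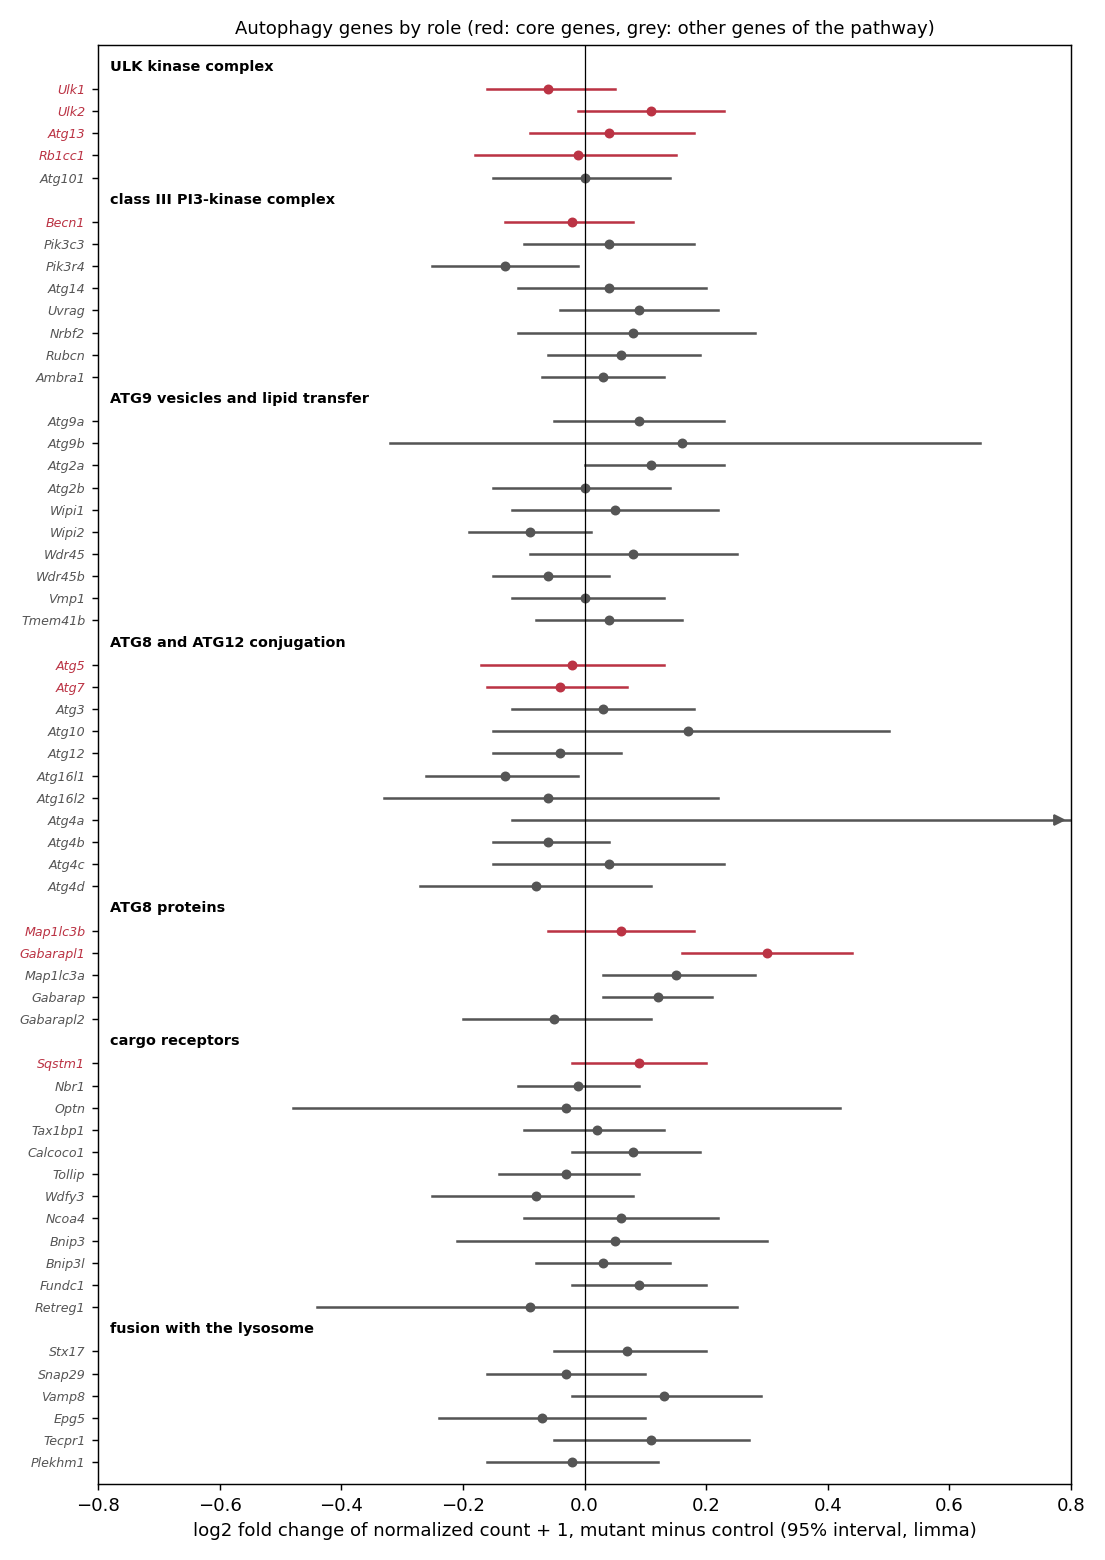
Log2 fold change of log2(normalized count + 1), mutant minus control, with its 95% limma interval for the 10 core genes (red) and 47 other autophagy genes (grey), grouped by role. Most intervals include 0, that of *Gabarapl1* (0.16 to 0.44) lies highest above it, and that of *Atg4a* (-0.12 to 3.05) runs past the axis, as the arrow shows.

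Counting error made up part of the spread between libraries in the 10 genes. They had 777 to 3259 reads per library, which gives a counting coefficient of variation of 1.80 to 3.46%. The coefficient of variation between libraries of a group was 2.24 to 7.75% and exceeded the counting one in 8 of the 10 genes. It did not for *Becn1* (2.24 against 2.92%) and *Atg7* (2.89 against 3.21%). Exons of *Becn1*, *Map1lc3b*, *Rb1cc1* and *Sqstm1* also overlap a gene of the opposite strand, and of these partners *Cntd1*, beside *Becn1*, was at 38.5 ± 7.05 and 44.7 ± 3.14 normalized counts, and *Zcchc14*, beside *Map1lc3b*, at 3270 ± 175 and 3233 ± 40.1. How reads in such shared stretches were assigned was not given in the sources used here.

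Over the 6 libraries, the genes outside the pathway whose log2 values were most like those of *Gabarapl1*, among 11404 genes with a mean of at least 100, were *Slc9a3r2* (Pearson r = 0.993), *Rps24* (0.993) and *Zbtb7a* (0.990). *Slc9a3r2*, a scaffold protein gene, was at 914 ± 30.7 in control and 1025 ± 20.5 in mutant pools. *Rps24*, a ribosomal protein gene, was at 16366 ± 331 and 17391 ± 331. *Zbtb7a*, a transcription factor gene, was at 836 ± 18.7 and 903 ± 16.2. These genes, like *Gabarapl1*, had every mutant pool above every control pool, as seen in 9.77% of all tested genes. Since they were picked for likeness to *Gabarapl1* over the same libraries, their separation is not a separate result. Their limma adjusted p-values were 0.195, 0.326 and 0.384. With 6 points that include the group difference, 93 genes had an r above 0.95, and these values are a description.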

How the data were processed

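For the 6 libraries the authors deposited 1 table of signal values, reads per gene that they had divided by the library's size factor (normalized counts). The submitters' processing notes name Trim Galore, HISAT2, featureCounts, DESeq2 and the build mm10, without versions or order. Its other columns hold the authors' own comparison, as deposited log2 fold changes, standard errors and a test statistic (both scores) and p-values, and were not used. Samples of a later stage were not analysed here.

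Values were compared on log2(normalized count + 1) with limma 3.58.1 in R 4.3.3 (eBayes with trend), for genes reaching 1 in 3 or more libraries. P-values were adjusted over all of them by the Benjamini-Hochberg method, with a threshold of 0.05. Fold changes on this scale understate those of low genes. Every value was a whole multiple of 1 step per library (100% within 0.001), which gave whole reads. The step of control pool 3 (0.9940) is close to 1 and was less certain, so edgeR 4.0.16 (quasi-likelihood, TMM) and DESeq2 1.42.0 were run as alternatives on 5 libraries and, chosen after seeing the data, on 6. In data simulated for this comparison, limma called 86 of 100 genes changed by 0.5 on the log2 scale and 100 of 100 changed by 1, among 17328 genes, with 2.62% of calls false. For edgeR the counts were 87 and 100 among 14663 genes, with 4.1% false. The simulation gave every gene the same dispersion, 0.003, which real genes do not share. Changes of 0.30 or less, the size seen in the core genes, were not simulated, so these counts do not give the power for them.

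For ratios, exact permutation tests were two-sided. Genes were matched by symbol, with coordinates from GENCODE M21 (GRCm38). The core genes and lists were chosen with earlier results of these data known. Named are the 10 core genes, *Rptor*, the 6 other autophagy genes with the lowest p, listed complex and family partners, overlapping genes, and the 3 genes with the highest r to the core gene of lowest p. Group labels came from the samples' titles and genotypes. For 27 genes the symbol reads as a date, left unchanged. Alternatives were limma without the trend, a pseudocount of 0.1, no filter, at least 10 in every library, TMM, upper-quartile scaling, a replicate block and leaving out each library.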

Additional observations from a re-analysis of the deposited data

How the results depend on the processing

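Of 170 values of the 10 core genes under alternatives, 162 kept their direction and their side of the threshold. The number of core genes called, 0, became 1 (*Gabarapl1*) with edgeR on 5 libraries and with DESeq2 on 6, and was 0 to 1 when single libraries were left out. The number with an unadjusted p under 0.05, 1, was 1 to 2 without single libraries and 2 with edgeR and with DESeq2 on 5 libraries. For the other autophagy genes that number, 4, was 2 without the trend, 1 to 7 without single libraries and 1 with DESeq2 on 5 and on 6 libraries. Over all tested genes it moved too, from 2328 to 2003 without the trend, to 1574 to 2893 without single libraries, and to 1680 and 1569 with DESeq2 on 5 and on 6. Without single libraries, the log2 fold change of *Atg5* ran from -0.08 to 0.02, turning to 0.02 without control replicate 1 and to 0.00 without mutant replicate 3, and that of *Rb1cc1* ran from -0.07 to 0.07. The value of *Rb1cc1* turned to 0.07 without control replicate 3, in limma, edgeR and DESeq2. The *Sqstm1* to *Map1lc3b* ratio differed by -0.02 to 0.06 without single libraries. Apart from the libraries left out, the cause of these shifts was not tested. Over all tested genes, 86 calls became 8 without the trend, 65 without a filter, 1, 167 and 464 without control replicates 1, 2 and 3, and 12, 18 and 1 without mutant replicates 1, 2 and 3. The deviations of same-numbered control and mutant pools had correlations of -0.03, 0.20 and 0.08. Those of differently numbered pools ran from -0.17 to 0.13. With the replicate block, 71 genes and 0 core genes were called, and *Gabarapl1* stood at 0.30 on the log2 scale (limma adjusted p = 0.0802). The sign-flip test of the paired ratios cannot give a p under 0.25.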

Other observations

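The remaining marker lists, as summed normalized counts in control and then in mutant pools, overlapped between the groups with the exception of the mesothelial one. Leukocyte markers were at 990 to 1384 and 1268 to 1367, and erythroid markers at 1170 to 1670 and 1202 to 1676, with 1 of the 3 listed erythroid genes, *Hba-a1*, at 0 in all libraries. Mesothelial markers, with 1 of 4 past the limma adjusted threshold, were at 3327 to 3883 and 3943 to 4447. Neural markers were at 1397 to 1468 and 1146 to 1482, and heart muscle markers at 435 to 601 and 362 to 447.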
